A study of Mus musculus with 4 samples.

Results

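Early centroblasts (early CB) were one of 6 classes of germinal center (GC) B cells in the deposited cell annotation, and they were taken here as every cell that carried this name. Each annotated cell was matched by its library and barcode to the matrix of that library. There were 680 early CB among 9804 annotated cells, which in turn were part of 39009 barcodes. They numbered 38, 110, 190 and 342 in the WT, C, K and CK libraries. The name was given by label transfer from the expression of these same cells, so every comparison of early CB with another class below is a description and carries no test.

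GCs form in B cell follicles after immunization. In their dark zone B cells, called centroblasts (CB), divide fast and mutate their antibody genes, a process that starts with cytosines turned into uracils. In the light zone the cells, then called centrocytes (CC), test their receptor against antigen and seek help from T cells, and some return to the dark zone. A dividing cell copies its DNA in S phase with a set of replication factors that are transcribed under E2F control before and during that phase, and builds its spindle and centromeres in G2 and M phase with another set that is transcribed later.

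The 4 libraries came from spleens 10 days after immunization with sheep red blood cells, from B220+IgD- cells, a gate that admits GC B cells along with other B220-bearing cells. By the study's methods all 4 genotypes, WT included, carried a Cre recombinase in the Cγ1 (Ighg1) locus, which is transcribed in B cells that respond to T cell help, so that deletion is limited to those cells and their offspring. WT mice had no floxed allele, C mice had 1 floxed copy of Crebbp, K mice 1 floxed copy of Kmt2d, and CK mice 1 of each (C_het_KO, K_het_KO and CK_het_DKO in the labels). The mice were described as C57BL/6J females aged 8 weeks. With 1 mouse and 1 library per genotype there is no replicate, no test between genotypes was made, and mouse, library and genotype cannot be told apart. Xist, the transcript of the inactive X chromosome of female cells, had 0 to 13 UMIs in each whole library, while the Y-linked Ddx3y and Eif2s3y had 1514 to 2378 and 2400 to 2802 UMIs, so all 4 libraries went against the stated sex. Libraries held 33270825 to 39803865 UMIs. Any 2 libraries shared 17 to 31 barcodes, and no barcode was an early CB in 2 libraries.

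The annotation ended just below 2500 genes per cell, and early CB lay close to that limit. Their median was 2312, 2178, 2116 and 2006 genes in WT, C, K and CK, and 78.9, 65.5, 66.3 and 50.6% of them had 2000 genes or more. Their median UMI count was 6674, 5826, 6354 and 5128, against 5502, 4936, 5526 and 4604 in CB and 4741, 3498, 3811 and 2670 in CC. Cells above the limit were therefore given the most frequent label of their 25 nearest cells below it, and 111, 125, 114 and 102 of them fell to early CB. On that count the limit left out 74.5, 53.2, 37.5 and 23.0% of early CB in WT, C, K and CK. The vote is rough, since it returned only 56.0% of the annotated early CB to their own class. The added cells had median UMI counts of 12603, 10300, 11233.5 and 9895.5 in WT, C, K and CK. Doublets among them were neither counted nor removed, so some may be doublets. Shares, counts of genes and the named genes of CK over WT are given below with and without these cells.

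Of the 3 genes proposed as markers, Mki67 and Top2a were higher in early CB than in CC. Only Top2a was found more often, by the share of cells with a UMI, in early CB than in all CB in every library. Levels are given as CPM, the summed UMIs of a gene divided by those of all genes in the cells of 1 class and library and scaled to the same total everywhere, and ranges in parentheses are 95% intervals for counting error only. Mki67, a protein of dividing cells (chr7:135689784-135716361), stood at 633, 546, 242 and 589.8 CPM in early CB of WT, C, K and CK and at 853, 924, 391 and 961 CPM in CB. It was thus lower in early CB than in CB in all 4 libraries, and lowest in K in both classes. Top2a, the topoisomerase that untangles replicated DNA (chr11:98992943-99024189), stood at 961, 1159.5, 609 and 989.9 CPM in early CB, 557, 1015, 536 and 1242 CPM in CB and 48.7, 45.7, 32.8 and 66.1 CPM in CC. A UMI of Top2a was found in 97.4, 99.1, 94.2 and 98.5% of early CB and in 69.4, 71.7, 60.2 and 76.3% of CB. The share was 11.3 to 17.8% in CC and, for comparison, 6.75 to 13.8% in barcodes marked by Cd3 genes of T cells. After thinning to 2000 UMIs the shares were 84.2, 90.0, 71.1 and 86.5% of early CB and 46.6, 58.7, 44.8 and 67.1% of CB, so the classes did not overlap in either form, while the summed level in CK was lower in early CB than in CB. Cxcr4, the receptor that holds cells in the dark zone (chr1:128588199-128592293), gave only 10, 12, 17 and 23 UMIs in early CB, or 42.5, 19.1, 14.4 and 13.2 CPM, against 38.5, 34.6, 29.6 and 27.2 CPM in CB. Its share of cells with a UMI was 18.4, 8.18, 8.42 and 6.43% in early CB of WT, C, K and CK and 2.66 to 5.05% in the Cd3-marked barcodes, at median depths of 5128 to 6674 and 2054 to 3314 UMIs. Cxcr4 was lower in early CB than in CB in C, K and CK and slightly higher in WT. It thus did not mark early CB in these data. The CB of deposited cluster 3, where most early CB lay, had more of these markers. The 3 genes summed to 3432, 3217, 1489 and 3112 CPM in those CB of WT, C, K and CK. In early CB they summed to 1636, 1724, 865 and 1593 CPM. Mki67 and Top2a were each past 1.5-fold lower in early CB than in those CB in every library. By summed level, Top2a was thus not particular to early CB.

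Cd79a, a signalling chain of the B cell receptor, had 639, 1589, 3596 and 4237 UMIs in early CB, and Fas, a surface marker of GC B cells, had 53, 150, 302 and 425. Lists of non-B cells were low. The 12 T cell genes summed to 105 to 148 CPM, with Cd3e at 1, 0, 3 and 9 UMIs, and the 12 myeloid genes to 162 to 229 CPM, with Lyz2 at 0 in every library. The 7 erythroid genes summed to 42.4 to 109 CPM and the 10 natural killer and plasmacytoid dendritic genes to 135 to 187 CPM. The plasma cell list was higher, at 2210.2 to 2938 CPM over its 10 genes. Most of it came from Mzb1 (973, 1366, 1165 and 1296 CPM in WT, C, K and CK) and Jchain (905, 1123, 1143 and 1071 CPM), chaperone and joining chain genes of antibody assembly, which stood at 1658, 1684, 1505 and 1534 and 1225, 1364, 1232 and 1126 CPM in CB. Ssr4, Slamf7 and Xbp1 gave most of the rest. Sdc1 was at 0 in every library and Prdm1 at 0, 0, 1 and 0 UMIs. Resting follicular B cell genes summed to 397 to 497 CPM.

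Nearly all of the 680 cells were placed in S phase. The deposited S phase score was above 0 in 680 of 680 early CB, from 0.0425 to 0.951 with a median of 0.540, against 45.3% of CB, 52.2% of transitioning cells, 8.59% of CC and 89.0% of the 82 recycling cells. Recycling cells were thus close to early CB in the share above 0, but their median score was lower, at 0.294. The S phase score exceeded the G2M score in 100, 97.3, 98.4 and 96.5% of early CB in WT, C, K and CK. The G2M score was nevertheless above 0 in 60.5, 79.1, 63.2 and 77.5% of them. Phases were also scored again from the S and G2M lists used here. These lists resemble the deposited scores, so the repeat is no independent check. It placed 97.4, 97.3, 97.4 and 96.5% of early CB in S phase, and 97.4, 94.5, 92.5 and 94.7% after every cell had been thinned to 2000 UMIs. In CB the share placed in S phase was 6.01, 11.2, 12.6 and 13.4%. Free RNA can reach such calls, and its part in them was not tested. The S list summed to 13797, 14038, 13302 and 14824 CPM in early CB and to 4004, 5765, 5742 and 7069 CPM in CB, so the levels of the 2 classes did not overlap.

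Nearly all early CB lay in 1 deposited cluster, and most lay near the start of the deposited pseudotime, as did part of the CB. Cluster 3 held 676 of the 680. It also held 958 CB, 429 transitioning cells and 65 recycling cells, so that early CB made up 31.5% of it. The CB of this cluster had S phase scores as well (above 0 in 871 of 958, median 0.340), but their G2M score was above 0 in 954 of 958. By pseudotime, the median early CB stood after 5.09, 3.91, 4.81 and 4.197% of WT cells in WT, C, K and CK, and the median CB after 14.6, 8.39, 8.31 and 4.81%. The gap between both classes was 14.6 against 5.09 in WT and 4.81 against 4.197 in CK. The lower quartile was 3.48, 2.61, 3.20 and 2.69% for early CB and 5.95, 2.36, 3.18 and 1.55% for CB. In C, K and CK the lower quartile of CB thus came before that of early CB. The paper anchored this pseudotime at CB, so it does not place early CB ahead of CB. Across the genes with at least 20 UMIs, early CB resembled the CB of cluster 3 most, with a Spearman rho of 0.870, 0.908, 0.939 and 0.948, and prememory cells least, at 0.702, 0.727, 0.742 and 0.760. These correlations are across genes, rise with the depth of the class, and are descriptions.

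**Figure D1:**
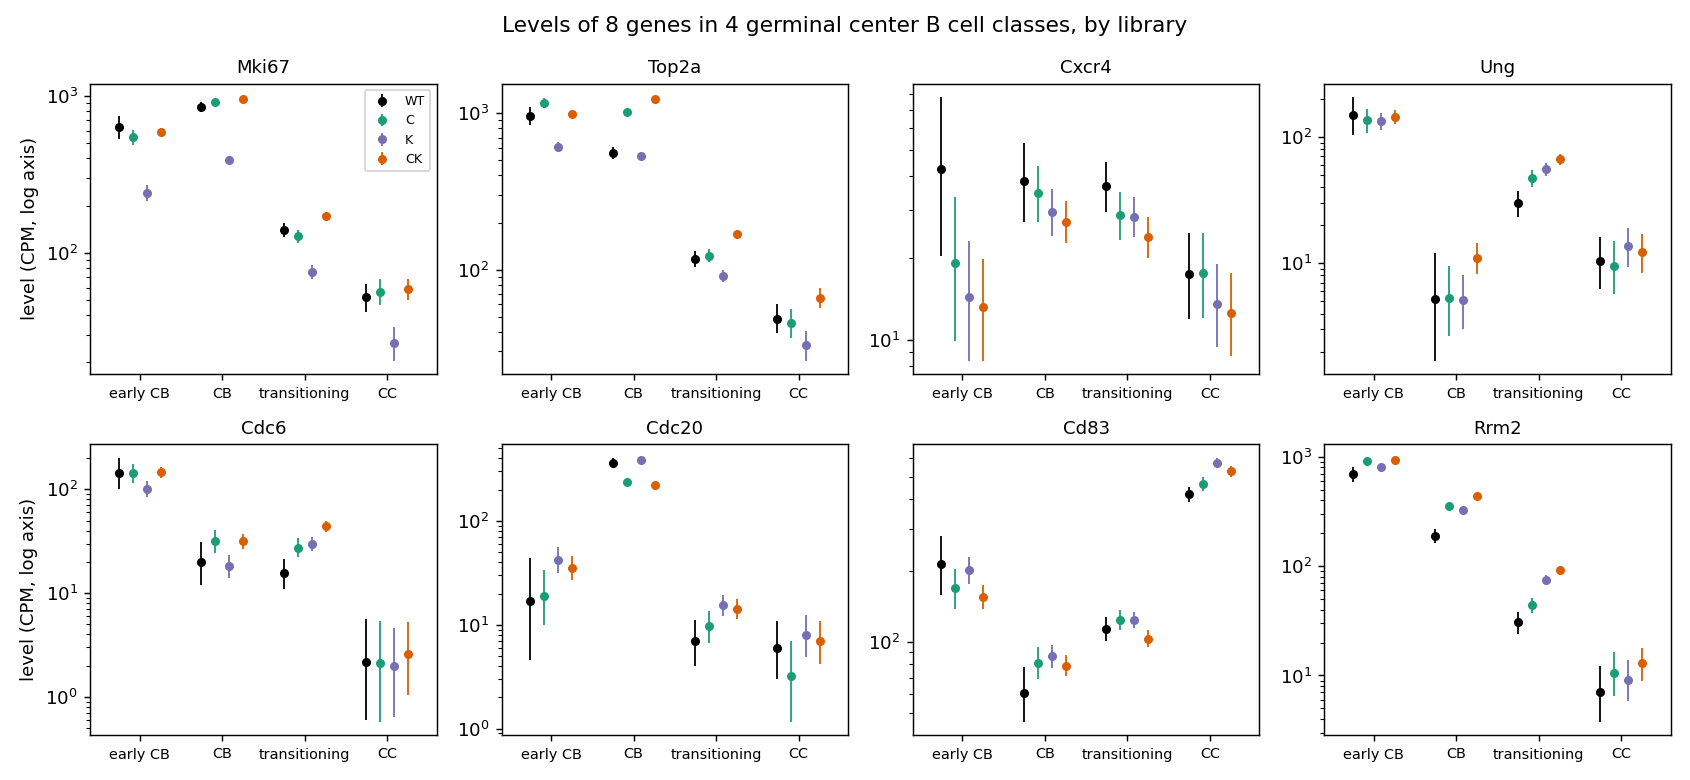
Levels of 8 genes (CPM of summed UMIs, log axes) in early CB, CB, transitioning cells and CC of the 4 libraries, 1 point per library with its 95% Poisson interval. Ung and Cdc6 were highest in early CB in every library, Cdc20 was highest in CB, and Cxcr4 did not set early CB apart.

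Early CB differed from CB by higher DNA replication genes and lower mitotic genes. A gene was counted as higher or lower when its CPM ratio passed 1.5-fold in the same direction in 4 of 4 libraries, among genes with at least 20 UMIs over both classes in each library. Of 5828 such genes, 173 (2.97%) were higher in early CB and 187 (3.21%) were lower. Without WT, which had the fewest cells, 276 were higher and 301 lower in the other 3 libraries, and without CK 243 and 284. Of the 57 genes of the S list, 46 were higher and 0 lower, with a median log2 ratio of 1.28. Of 73 tested genes of the G2M list, 0 were higher and 40 lower, with a median of -1.13. The median over all genes tested lay between -0.13 and -0.052 in the 4 libraries. These lists resemble the scores behind the annotation, so their direction is no independent finding.

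The largest ratio belonged to Ung, the glycosylase that cuts uracil out of DNA (chr5:114130386-114139323, GRCm38). It had 35, 85, 157 and 251 UMIs in early CB of WT, C, K and CK, or 149, 135, 133 and 144 CPM, against 5.20, 5.29, 5.12 and 11.04 CPM in CB and 10.4, 9.56, 13.6 and 12.2 CPM in CC. All 4 early CB values lay above every value of the other 2 classes. The log2 ratio over CB was 4.84, 4.68, 4.70 and 3.70 in WT, C, K and CK, a median of 25.8-fold. A UMI of Ung was seen in 65.8, 55.5, 54.7 and 50% of early CB and in 1.64, 2.14, 2.64 and 4.34% of CB, and after thinning to 2000 UMIs in 21.1, 21.8, 23.0 and 22.6% and 0.575, 0.489, 1.43 and 1.22%. In the shallower Cd3-marked barcodes the share was 5.52 to 6.10% without thinning, above that of CB. These barcodes may hold Ung transcripts of their own, so they set no background level. Transitioning cells stood between the 2, at 29.8, 46.9, 55.2 and 66.2 CPM.

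The other 9 genes with the highest ratios over CB all serve DNA replication or the chromatin of new DNA. Cdc6, which loads the replicative helicase at origins (chr11:98907801-98923940), stood at 145, 143, 101 and 146 CPM in early CB of WT, C, K and CK and at 19.7, 31.7, 18.2 and 31.6 CPM in CB. E2f1, a transcription factor of S phase genes, stood at 136, 154, 137 and 128 CPM in early CB and 21.8, 28.9, 35.8 and 31.2 CPM in CB. Neither gene's early CB values overlapped its CB values. Mcm4, a subunit of the helicase, stood at 459, 522, 253 and 568 CPM and 88.3, 132, 62.5 and 191 CPM. K was the lowest library for Mcm4 in both classes. The median log2 ratios of the rest were 2.16 for Cdca7, a partner of a remodelling enzyme in DNA methylation, 2.15 for the helicase partner Gins2, 1.83 for Rpa2, which coats single-stranded DNA, 1.80 for Chaf1b, which places histones on new DNA, 1.77 for Uhrf1, which guides methylation of new DNA, and 1.75 for the helicase subunit Mcm3.

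The 10 genes with the lowest ratios over CB all belong to mitosis. Cdc20, which activates the ubiquitin ligase that ends metaphase (chr4:118432901-118437352), had 4, 12, 50 and 62 UMIs in early CB of WT, C, K and CK, or 17, 19.1, 42.3 and 35.5 CPM, against 361, 238, 386 and 221 CPM in CB. Cenpf, a kinetochore protein (chr1:189640606-189688086), stood at 25.5, 44.5, 35.5 and 41.8 CPM and 355, 432, 313 and 472 CPM. The mitotic cyclin gene Ccnb2 stood at 38.3, 68.4, 49.1 and 65.3 CPM and 629.8, 580.1, 585 and 497 CPM. For each of the 3, every CB value lay above every early CB value. Median log2 ratios were -3.24 for Ube2c, the partner enzyme of the same ligase, -3.09 for Aspm and -3.07 for Knstrn of the spindle, -2.85 for the phosphatase gene Cdkn3, -2.82 for the centromeric histone Cenpa, -2.64 for Hmmr of the spindle and -2.52 for cyclin B1.

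Promoters of these 2 sets differed in their short motifs. The windows were 300 bases around the start of each gene in RefSeq on GRCm38.p6, 5′ to 3′ on the gene's strand, and were searched on both strands. E2F words (TTTCCCGC, TTTCGCGC, TTTGCCGC or TTTGGCGC) were in 2.32% of 27025 windows, CCAAT boxes (CCAAT) in 37.9%, and the CHR element of late cell cycle genes (TTTGAA or TTCGAA) in 19.4%. No word contains a word of another motif. Of the 10 highest genes over CB, 8 matched a window, and 3 of the 8 held an E2F word, 3 a CCAAT box and 0 a CHR. Of the 10 lowest, all 10 matched, and 0 held an E2F word, 9 a CCAAT box and 8 a CHR. The 5 windows that follow show the highest gene, which holds none of the words, 2 high genes picked because they hold an E2F word, and the 2 lowest genes. Capitals mark the matches of any of the 3 motifs on either strand.
Ung, chr5:114130185-114130484 on the plus strand: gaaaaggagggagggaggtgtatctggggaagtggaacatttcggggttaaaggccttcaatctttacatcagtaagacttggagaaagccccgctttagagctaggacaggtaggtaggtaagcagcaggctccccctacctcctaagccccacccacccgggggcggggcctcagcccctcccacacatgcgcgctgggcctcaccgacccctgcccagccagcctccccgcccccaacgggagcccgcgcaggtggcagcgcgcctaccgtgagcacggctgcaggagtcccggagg
Cdc6, chr11:98907901-98908200 on the plus strand: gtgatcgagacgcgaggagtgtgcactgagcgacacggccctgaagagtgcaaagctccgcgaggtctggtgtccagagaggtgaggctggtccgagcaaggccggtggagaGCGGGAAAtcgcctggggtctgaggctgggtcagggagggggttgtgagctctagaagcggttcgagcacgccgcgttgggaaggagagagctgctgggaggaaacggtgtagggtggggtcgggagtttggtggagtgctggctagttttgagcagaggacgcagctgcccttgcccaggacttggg
Mcm3, chr1:20820263-20820562 on the minus strand: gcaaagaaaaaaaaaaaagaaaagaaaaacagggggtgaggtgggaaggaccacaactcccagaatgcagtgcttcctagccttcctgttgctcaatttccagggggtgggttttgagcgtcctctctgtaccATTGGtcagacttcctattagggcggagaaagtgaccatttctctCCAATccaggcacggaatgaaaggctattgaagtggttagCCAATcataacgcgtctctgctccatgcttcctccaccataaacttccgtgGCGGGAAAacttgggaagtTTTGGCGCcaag
Cdc20, chr4:118437294-118437593 on the minus strand: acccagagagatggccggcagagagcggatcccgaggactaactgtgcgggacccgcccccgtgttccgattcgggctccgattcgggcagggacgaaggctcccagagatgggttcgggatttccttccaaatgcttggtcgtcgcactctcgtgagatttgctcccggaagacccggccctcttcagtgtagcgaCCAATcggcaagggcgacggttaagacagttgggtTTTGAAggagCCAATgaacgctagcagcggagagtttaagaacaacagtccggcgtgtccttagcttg
Cenpf, chr1:189688037-189688336 on the minus strand: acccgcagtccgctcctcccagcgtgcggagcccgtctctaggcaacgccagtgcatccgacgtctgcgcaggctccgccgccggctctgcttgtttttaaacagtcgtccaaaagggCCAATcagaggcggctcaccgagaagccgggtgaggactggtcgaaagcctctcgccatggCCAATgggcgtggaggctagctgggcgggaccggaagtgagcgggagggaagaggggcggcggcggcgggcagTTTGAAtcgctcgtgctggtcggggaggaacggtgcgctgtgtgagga
The Cdc6 window held 1 E2F word and the Mcm3 window 2 E2F words and 3 CCAAT boxes. The Cdc20 and Cenpf windows each held 2 CCAAT boxes and 1 CHR. A match shows the letters only and says nothing of whether a factor binds there, and other forms of these motifs were not searched.

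Against the CB of cluster 3, fewer genes were higher than against all CB. These cells mostly had an S score above 0 as well, but in 57.1, 63.3, 58.0 and 68.0% of them the G2M score was the higher of both in WT, C, K and CK. Of 3196 genes tested, 29 (0.907%) were higher in early CB and 111 (3.47%) lower. This comparison was added after the data had been seen, and WT had only 35 such CB. Ung led here too, at 25.6, 6.47, 9.63 and 14.2 CPM in these CB of WT, C, K and CK, with log2 ratios of 2.54, 4.39, 3.79 and 3.34 for early CB over them. The genes that followed included Ppan (1.5), a nucleolar factor of ribosome assembly, Cdca7 (1.46), Apex1 (1.32), Gins2 (1.28) and Mcm4 (1.27), as median log2 ratios. Of 53 S genes tested, 11 were higher, among them Cdc6, E2f1 and 5 of the Mcm helicase genes, and 0 lower. Of 63 G2M genes, 52 were lower, led by Ube2c (-3.31), Cenpf (-3.28) and the mitotic kinase gene Plk1 (-2.59). All 11 replication-dependent histone genes tested were lower, with a median of -1.73, such as Hist1h2ae at -2.16 and Hist1h4d at -2.08. Without WT, 118 genes were higher and 219 lower, and without K 46 and 125. Histone transcripts of this kind mostly lack a poly(A) tail, so the 3' counts hold only part of them.

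Histone levels varied among early CB along with the G2M score. The cells were split at a deposited G2M score of 0, which fixes the difference in G2M genes and gave 15, 23, 70 and 77 cells at or below 0 and 23, 87, 120 and 265 cells above 0 in WT, C, K and CK. Histone genes summed to 244, 327, 260.4 and 589.6 CPM in the first set and to 1951, 3024, 1090.3 and 2962 CPM in the second, and the 2 sets did not overlap. The S list did not divide in this way, at 13019 to 14929 and 13467 to 14796 CPM. Ung stood at 166, 137, 187 and 212 CPM in the first set and 138, 135, 102 and 126 CPM in the second, from as few as 15 UMIs. Rrm2, a subunit of the enzyme that makes deoxynucleotides, rested on more UMIs and stood at 443, 602, 652 and 672 and 848, 985, 907 and 995 CPM, higher in the second set in every library.

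Many genes that act on uracils and breaks in DNA were higher in early CB than in CB. Of 26 tested genes of the hypermutation and repair list, 13 were higher and 1 lower, with a median log2 ratio of 0.95, beside 2.97% and 3.21% of all genes. Apex1, which cuts the site that the glycosylase leaves, had a median log2 ratio of 1.64. Msh6, which takes part in recognising mismatches, had 1.02, and Exo1, an exonuclease of mismatch repair, 1.5. Brca1 and Brca2 of homologous repair were among the higher genes, with 1.53 and 1.19, as was the checkpoint kinase gene Chek1 with 1.92. The ligase gene Lig4 of end joining was the lower one, at -0.94, and Polh, a polymerase that copies past damage, had -0.78, -1.25, -0.26 and -1.69, below 0 in every library without passing the fold in all. Many of the higher genes serve replication in any dividing cell.

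**Figure D2:**
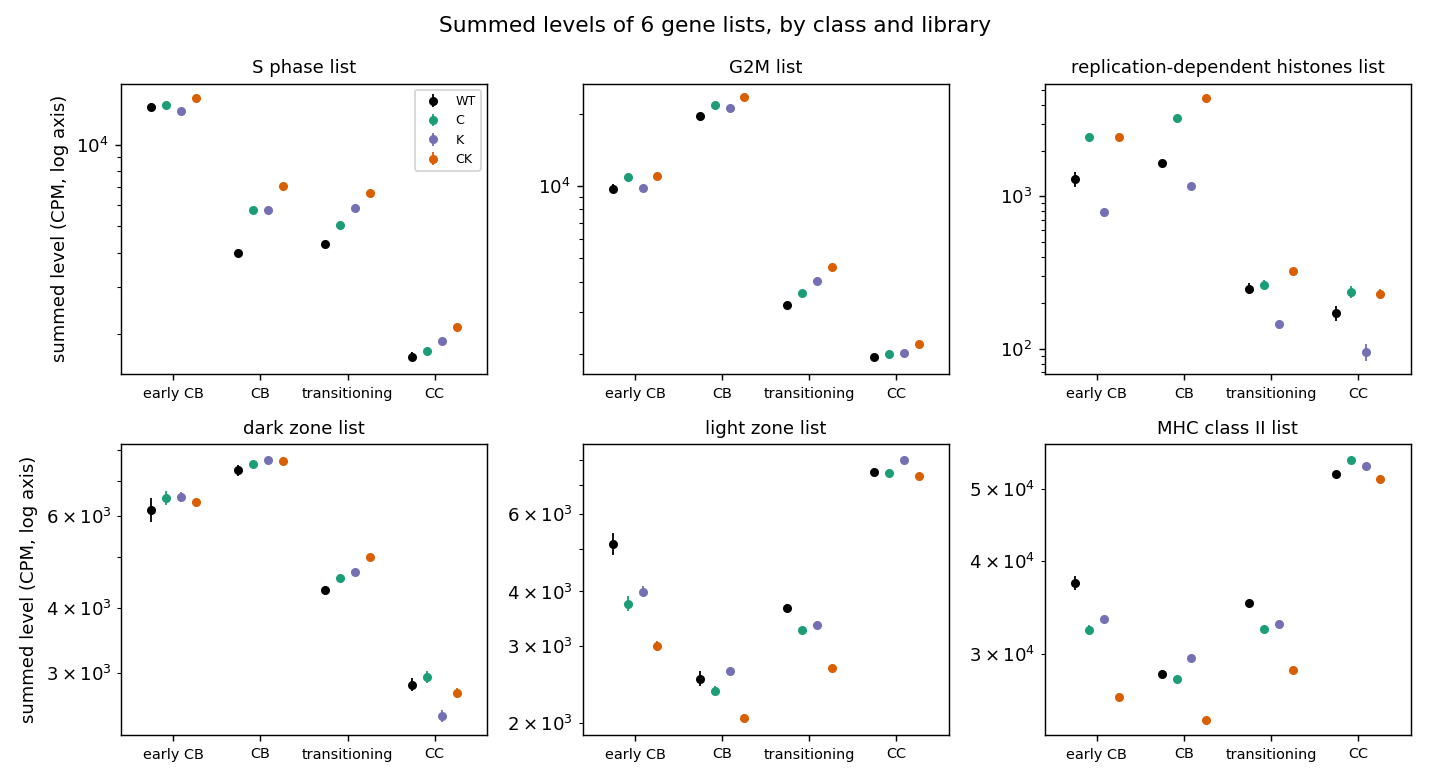
Summed levels of 6 gene lists (CPM, log axes) in early CB, CB, transitioning cells and CC of the 4 libraries, 1 point per library with its 95% Poisson interval. The S list was highest in early CB at 13302 to 14824 CPM, the G2M list was highest in CB, and light zone and MHC class II lists in early CB lay between CB and CC.

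Some light zone genes were also higher in early CB than in CB. Of 14 tested light zone genes, 3 were higher (Cd83, Cd86 and Slamf1) and 0 lower, beside 2.97% and 3.21% of all genes, with a median of 0.57. Cd83, which keeps MHC class II at the surface, stood at 213, 169, 201 and 155 CPM in early CB of WT, C, K and CK, 60.3, 81.3, 86.7 and 79.0 CPM in CB and 421, 466, 572 and 526 CPM in CC. Early CB were thus above CB and below CC in every library. Cd86, the ligand that costimulates T cells, stood at 80.8, 92.3, 83.8 and 63.1 CPM in early CB and 49.9, 51.0, 54.9 and 40.1 CPM in CB. Myc, a transcription factor gene that positively selected cells switch on, had only 9, 10, 23 and 24 UMIs in early CB, or 38.3, 15.9, 19.5 and 13.8 CPM, and 5.20, 5.29, 4.83 and 3.61 CPM in CB. A UMI of Myc was seen in 15.8, 9.09, 8.42 and 6.14% of early CB, in 2.19, 2.38, 2.02 and 1.48% of CB and in 11.1, 9.94, 9.36 and 6.78% of the shallower Cd3-marked barcodes. In C, K and CK early CB were therefore not above the Cd3-marked barcodes. These barcodes can hold Myc transcripts of their own, so they set no background level. Compared with CB, the share in early CB was higher in every library. After thinning it was 5.26, 4.55, 4.28 and 2.35% in early CB of WT, C, K and CK. In CB it was then 0, 1.47, 0.636 and 0.610%. These shares rest on few UMIs, and the part of free RNA in them was not tested. Egr1, an immediate early transcription factor gene, had a median of 1.08 but did not pass the fold in all 4 libraries. Of the 10 tested genes of the Myc and selection list, 2 were higher (Cd83 and Icosl), beside the same 2.97% of all genes, with a median of 0.40. Ccnd3, the D cyclin of GC division, stood at 421, 468, 462 and 465 CPM in early CB and 309.7, 329, 350.4 and 351 CPM in CB, while Ccnd2, the D cyclin of selected light zone cells, had 1, 2, 2 and 6 UMIs. MHC class II genes had 0 of 10 past the fold, a median of 0.18, and summed to 37352, 32353, 33428 and 26284 CPM in early CB and 28196, 27794, 29624 and 24476 CPM in CB. The CB of cluster 3 stood at 34178, 32098, 34466 and 27302 CPM, below early CB in WT and C and above them in K and CK. With the cells above the limit added to both classes, the MHC class II totals were 22476, 21040.1, 27154 and 21739 and 22879.9, 21213, 23931 and 20193 CPM, slightly below CB in WT and C and above CB in K and CK, while the light zone totals were still above CB in each library, at 3073, 2644, 3336 and 2613 and 2429, 2163, 2312 and 1901 CPM.

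Dark zone genes did not run together. The counts that follow stand beside 2.97% of all genes higher and 3.21% lower. Of 16 tested, only Slbp, the binding protein of histone transcripts, was higher (1.10), and Xrcc6 of end joining had 0.95 without passing in all 4. Gcsam (-0.81), Hmgb2 (-0.73) and Lig4 were lower, and the list's median was -0.23. Foxo1, a transcription factor of the dark zone, stood at 51.0, 68.4, 63.5 and 74.5 CPM in early CB of WT, C, K and CK and 95.6, 89.0, 81.3 and 84.9 CPM in CB, below CB in each library. Bcl6, the repressor that GC B cells need, stood at 63.8, 31.8, 26.2 and 35.0 CPM and 69.6, 57.7, 36.4 and 48.4 CPM, also below CB in each. Of the GC transcription factor list, E2f1 alone of 22 tested genes was past the fold. Among nucleolar genes, of 33 tested ribosome biogenesis genes, 5 were higher and 0 lower, with a median of 0.40, and those highest were Noc2l (1.26) and Gar1 (0.97), while the rRNA methylation factor gene Fbl had 0.75. Of genes for the start of the cycle, Cdk4 (1.13), Cdk2 (1.06) and E2f3 (1.51) were higher and the inhibitor Cdkn2d (-1.32) lower among 13 tested. No tested gene passed the fold among 73 ribosomal proteins, 56 genes of oxidative phosphorylation, 10 of glycolysis, 22 of B cell receptor signalling, 12 of apoptosis, 8 of prememory cells, 7 immediate early genes, 7 positioning receptors, 6 heavy chain constant regions or 10 genes of Crebbp, Kmt2d and partners.

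Against transitioning cells, early CB were higher in replication and in mitotic genes alike. Of 7498 genes tested, 325 (4.33%) were higher and 88 (1.17%) lower, and leaving out WT, C, K or CK in turn raised the lower count to 157, 164, 173 and 175. Higher were 51 of 57 S genes, 45 of 54 G2M genes, 8 of 10 histone genes and 15 of 30 hypermutation and repair genes. The highest were the histone genes Hist1h1b (4.70 as median log2 ratio) and Hist1h2ap (4.54), then Rrm2 (3.91), the motor gene Kif11 (3.61) and the mitotic kinase gene Cdk1 (3.57). Hist1h1b stood at 582, 1077, 163 and 945 CPM in early CB of WT, C, K and CK and at 23.7, 29.5, 5.91 and 49.8 CPM in transitioning cells. The lowest were modest, with Arl5c at -1.02, Tprgl at -1.02, Rnase6 at -0.86, the adhesion receptor gene Cd2 at -0.85 and Pafah1b3 at -0.85. No light zone or MHC class II gene passed the fold in either direction, at medians of 0.32 and -0.00098.

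Against CC, 572 of 6839 genes (8.36%) were higher in early CB and 272 (3.98%) lower, or 484 without WT. Higher were 49 of 50 S genes and 43 of 46 G2M genes, and lower were 10 of 17 light zone genes and 9 of 14 Myc and selection genes. Rrm2 led at a median of 6.44, from 693, 905, 813 and 928 CPM in early CB of WT, C, K and CK against 7.11, 10.6, 9.19 and 12.9 CPM in CC. Cdc6 (5.93), the clamp partner gene Pclaf (5.62), the repair gene Rad51ap1 (5.51) and the cohesion gene Esco2 (5.46) followed. The lowest were Il4i1 (-3.22), an oxidase gene induced by interleukin 4, Fcer2a (-2.21), the low affinity IgE receptor CD23, the quiescence factor gene Klf2 (-2.18), Mxd4 (-2.04), whose product opposes Myc, and Ly6d (-1.60).

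A set of 89 of 5673 genes (1.57%) was higher in early CB than in each of CB, transitioning cells and CC, and 10 (0.176%) were lower than in each. Of the 89, 35 were in the S list, 9 in the hypermutation and repair list, 1 in the dark zone list (Slbp) and 0 in the G2M, light zone and ribosome biogenesis lists. Genes outside the 6 lists numbered 49. Among them, chosen after their values were seen, were Dnmt1, which copies DNA methylation onto new strands, the licensing inhibitor gene Gmnn, the fork protection genes Timeless and Tipin, the E2F partner gene Tfdp1, and Mthfd2 and Ppat of nucleotide synthesis. E2F words were in the promoter window of 21 of the 67 of these genes that matched one (31.3%), CCAAT boxes in 40 (59.7%) and CHR elements in 10 (14.9%), beside the shares of 2.32, 37.9 and 19.4% over all windows. These genes were chosen by expression and draw on shared functions, so the shares are a description.

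The share of early CB was higher in the mutant libraries, and part of that difference depended on the gene limit. Of the annotated cells, CK had the highest share of early CB at 8.65 (7.79 to 9.57)%, K followed at 7.36 (6.38 to 8.43)%, C at 5.39 (4.45 to 6.46)% and WT at 3.10 (2.20 to 4.23)%. CK exceeded WT by 5.55 (4.14 to 6.84) points, K by 4.26 (2.77 to 5.66) and C by 2.29 (0.824 to 3.69), with intervals above 0 that cover counting error only. With the cells above the limit added, the shares became 7.01, 8.62, 8.97 and 9.54% for WT, C, K and CK, and the difference of CK from WT fell to 2.53 (1.10 to 3.90) points. Under 2000 genes only, the shares were 1.09, 2.57, 3.51 and 5.43%. The order of the 4 libraries was the same in the 3 settings.

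Among early CB and CB together the libraries were closer. Early CB were 25.2 (22.9 to 27.6)% of this pair of classes for CK, 22.8 (19.95 to 25.8)% for K, 20.7 (17.3 to 24.4)% for C and 17.2 (12.5 to 22.8)% for WT, so that the intervals of neighbouring libraries overlapped. CK exceeded WT by 8.05 (1.96 to 13.4) points, K by 5.56 (-0.733 to 11.2) and C by 3.52 (-3.04 to 9.53), and of the 3 only the difference of CK had an interval above 0. With the cells above the limit the shares were 18.6, 22.1, 21.1 and 23.1%, which put C above K, and the CK difference was 4.40 (0.976 to 7.69) points.

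**Figure D3:**
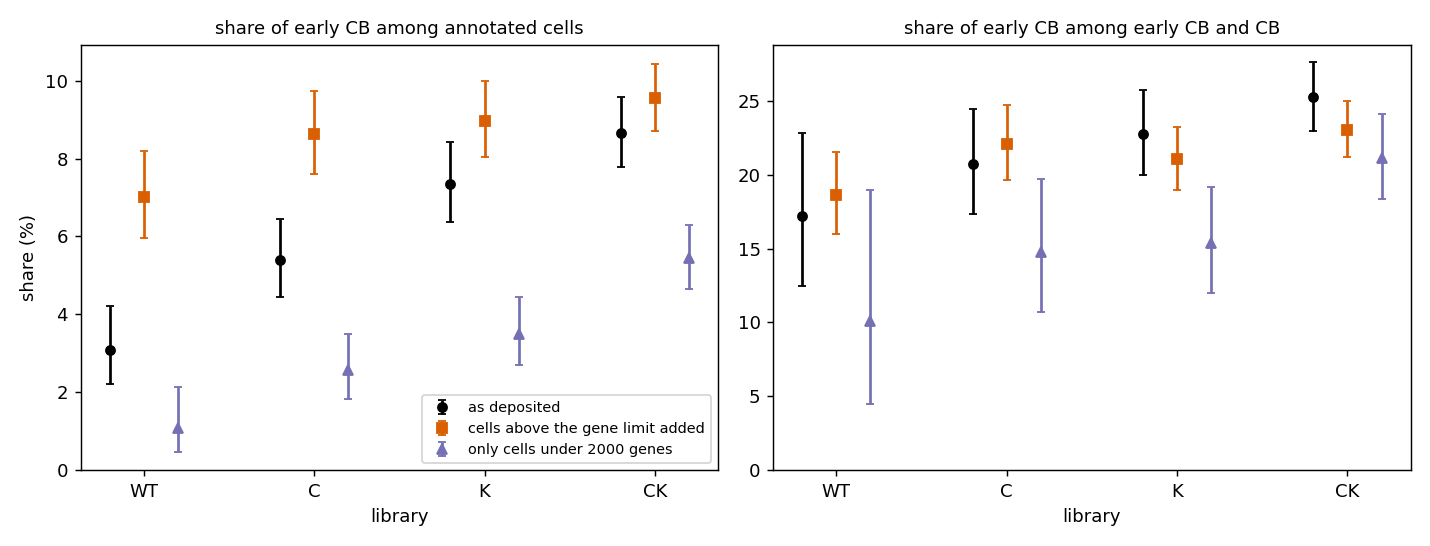
Share of early CB (%, axes from 0) among annotated cells and among early CB and CB together in each library, with 95% exact binomial intervals, as deposited, with cells above 2500 genes added by nearest neighbours, and among cells under 2000 genes. Among annotated cells the share was lowest in WT and highest in CK in all 3 settings, and the distance shrank when the cells above the limit were added.

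The targeted genes were measured thinly in early CB. Crebbp, an acetyltransferase of enhancer histones, had 11, 16, 37 and 55 UMIs in WT, C, K and CK, or 46.8, 25.4, 31.3 and 31.5 CPM, and Kmt2d, a methyltransferase of enhancer histones, had 4, 6, 3 and 18 UMIs, or 17, 9.54, 2.54 and 10.3 CPM. Crebbp was lower than WT in all 3 mutant libraries, K included, and Kmt2d was lowest in K. Counts from 3' ends do not show whether the floxed exons of 1 allele were deleted, so these values do not check the genotypes.

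Between genotypes a gene was counted when its CPM ratio passed 2-fold, if the pair of libraries compared held at least 20 of its UMIs. With 38 WT cells the ratios of low genes are imprecise, and all 3 comparisons share these cells. Over WT, 243 of 4843 genes (5.02%) were higher for C and 119 (2.46%) lower, for K 281 of 5775 (4.87%) higher and 548 (9.49%) lower, and for CK 516 of 6822 (7.56%) higher and 272 (3.99%) lower. With the cells above the limit, 73, 81 and 116 genes were higher for C, K and CK and 117, 612 and 132 were lower, so that the higher counts and the lower count of CK fell, the lower count of C hardly moved and that of K rose. The early CB name itself draws on S phase expression, which bears on the next values. The S list total differed from WT by log2 ratios of 0.025, -0.053 and 0.10 for C, K and CK, with 0, 0 and 0 of 57 genes higher and 0, 4 and 0 lower. In CB the same total was higher than in WT, by 0.53, 0.52 and 0.82, but with the cells above the limit it stood at 6965, 6721, 6301 and 7569 CPM, below WT in C and K. The G2M total differed in early CB by 0.16, 0.014 and 0.17. Histone genes summed to 1296, 2461, 785 and 2468 CPM in early CB of WT, C, K and CK and to 1646, 3280.0, 1169 and 4439 CPM in CB, so K was the lowest library in both classes. With the cells above the limit they summed to 2942, 3687, 1078 and 2958 CPM in early CB, a log2 ratio over WT of 0.33, -1.45 and 0.0078 for C, K and CK, against 0.92, -0.72 and 0.93 without them. The excess of CK was then gone, and K was still the lowest.

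Light zone and MHC class II genes were lower in CK early CB, and most of this went when the cells above the limit were added. The light zone list summed to 5134, 3754, 3994 and 3004 CPM in early CB of WT, C, K and CK, a log2 ratio of -0.77 (-0.86 to -0.68) in CK, and 5 of 15 tested genes were past 2-fold lower (Bcl2a1b, Fcer2a, Icam1, Nfkbia and Traf1), beside 3.99% of all genes. With the cells above the limit it summed to 3073, 2644, 3336 and 2613 CPM, a CK ratio of -0.23, with K above WT. Then 2 of 17 tested genes were past the fold lower (Ebi3 and Fcer2a) and 1 higher. Over all genes 132 were lower and 116 higher for CK in that setting, and nothing is read from so few members. MHC class II genes summed to 37352, 32353, 33428 and 26284 CPM, a log2 ratio of -0.51 (-0.54 to -0.47) in CK, with Ciita and H2-Oa past the fold. With the added cells they summed to 22476, 21040.1, 27154 and 21739 CPM, a CK ratio of -0.048, and K was then the highest library. In CB, CK stayed below WT in both settings. The light zone total of CB was 2528 CPM in WT and 2057 in CK, and 2429 and 1901 CPM with the added cells. The MHC class II total of CB was 28196 and 24476 CPM, and 22880 and 20193 CPM with them.

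Ciita, the master activator of MHC class II (chr16:10480059-10528418), had 48, 63, 120 and 131 UMIs in early CB of WT, C, K and CK, or 204, 100.2, 102 and 75.1 CPM. All 3 mutant libraries lay below WT, and so they did in CB, at 111, 86.1, 69.6 and 61.6 CPM. The log2 ratio of CK over WT was -1.44 (-1.93 to -0.93), and -0.64 (-0.94 to -0.35) with the cells above the limit. H2-Oa, a chain of the inhibitor of peptide loading, stood at 229.5, 132, 166 and 95.7 CPM, with a CK ratio of -1.26 (-1.71 to -0.79) that became -0.23 (-0.53 to 0.073), an interval that includes 0. Fcer2a (chr8:3681737-3694175) was the lowest gene in CK over WT among those with C and K also below WT. That rule fixed WT as the highest library in early CB in advance. Fcer2a had 27, 47, 28 and 30 UMIs, or 115, 74.8, 23.7 and 17.2 CPM, with WT and C above K and CK. Its CK ratio was -2.74 (-3.54 to -1.93) and stayed at -2.10 (-2.73 to -1.50) with the added cells, beside -0.82 in CB. Gm47283, a predicted gene on chromosome Y (chrY:90784738-90816464), stood at 319, 85.9, 124 and 67.1 CPM in early CB and 175, 60.1, 79.0 and 42.5 CPM in CB, with CK ratios of -2.25 (-2.68 to -1.81) and -2.04. It was picked by the same rule, and WT was the highest library in CB too, which the rule did not fix.

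The other low genes in CK given here had ratios closer to 0 with the added cells. The low and high genes were chosen by their extreme ratios in the deposited cells. A move toward 0 can therefore not be credited to the gene limit. As log2 ratios without and with those cells, Gatm -1.58 and -0.70, Nfkbia -1.38 and -0.53 and C130026I21Rik -1.32 and -0.19 were the values for a creatine enzyme gene, an inhibitor of NF-κB and a gene of unknown role. In CB the ratios of Gatm and Nfkbia were on the other side of 0, at 0.35 and 0.26. The 8 highest genes moved in the same way. Rgcc, a regulator of the cell cycle, had 10, 61, 108 and 242 UMIs, or 42.5, 97.0, 91.4 and 139 CPM, with a CK ratio of 1.71 (0.80 to 2.79) that became 0.54 (0.29 to 0.80). Lmo4, a LIM domain cofactor, stood at 55.3, 108, 160.0 and 176 CPM, with 1.67 (0.88 to 2.60) and then 0.69 (0.43 to 0.95). The ratios without and with those cells were Glrx5 1.51 and 0.36, Psmc1 1.43 and 0.034, Hdgfl2 1.40 and 0.45, Fbxo5 1.34 and 0.057, Arl5c 1.24 and 0.54 and Mat2b 1.24 and 0.42. Rgcc, Lmo4, Fcer2a and Ciita kept intervals clear of 0 in both settings. Psmc1, a proteasome ATPase gene, and Fbxo5, an inhibitor of the mitotic ubiquitin ligase, did not. Because of the choice by deposited ratios, and because both settings share the deposited cells, this is no separate check.

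**Figure D4:**
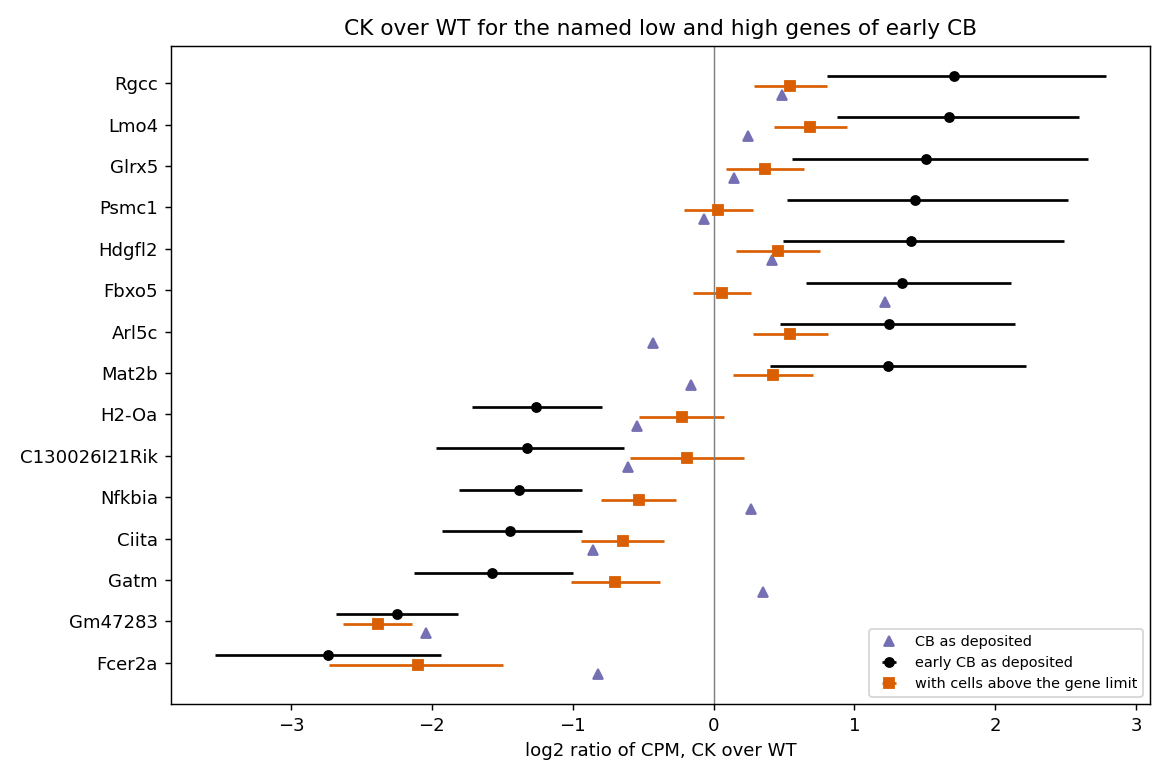
Log2 ratio of CPM of CK over WT for the named low and high genes of early CB, with 95% counting intervals, as deposited and with cells above 2500 genes added, and the ratio in CB. Most ratios lay closer to 0 with the added cells, and those of Fcer2a and Gm47283 stayed below -2. The genes were chosen by their deposited ratios, so a move toward 0 cannot be credited to the gene limit.

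Constant region transcripts varied between libraries. Ighm stood at 3558, 2160.0, 3514 and 2783 CPM in early CB of WT, C, K and CK and at 3312, 2422, 3559 and 3003 CPM in CB. Ighg1, the isotype whose locus carries the Cre, stood at 51.0, 121, 239 and 110.1 CPM in early CB and 79.0, 184, 199 and 141 CPM in CB, in the same order of libraries in both, lowest in WT and highest in K, and in WT early CB it rested on 12 UMIs. With the added cells its CK ratio over WT went from 1.11 (0.27 to 2.09) to 0.12 (-0.094 to 0.34).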

How the data were processed

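The authors sorted B220+IgD- cells from the spleen of 1 mouse of each genotype and made a 10x 3' gene expression library from each. The deposited matrices hold raw counts of UMIs, made by the authors with Cell Ranger (3.0 in the submitters' processing notes, 3.0.2 in the file headers) on mm10. The authors also deposited a table of GC B cells with module scores made by the authors in Seurat 4.0, the percent of mitochondrial UMIs and class names, which the authors transferred from earlier data sets. It ends below 2500 genes and 8% mitochondrial UMIs. All 9804 of its cells matched the matrices, and the deposited UMI count equalled the matrix sum in 79.9% with a difference of 5 or less elsewhere. The deposited pseudotime column holds other ranks for WT, so positions are the share of WT cells ranked before a cell.

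Counts were summed per class and library and scaled to CPM. Intervals are exact Poisson for sums, exact conditional binomial for ratios, Clopper-Pearson for shares and Newcombe for differences, all at 95%, and cover counting error only. A gene at 0 was set to 3 counts in ratios, with no ratio where both sums were at or under 3. Cells at or above 2500 genes took the most frequent label of their 25 nearest cells in 30 principal components of 2000 variable genes (scanpy 1.11.5, scikit-learn 1.9.0). Tables and intervals were made with pandas 2.3.3, scipy 1.17.1 and numpy 2.4.6, and plots with matplotlib 3.10.9. Doublets were kept. Scrublet, run per library at an expected rate of 0.06, called 0, 3, 2 and 5 annotated early CB in WT, C, K and CK. Calls among the added cells above the limit were not counted. Scripts were tested on simulated data. Coordinates are those of GRCm38 in the GENCODE annotation.

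The cells, gene lists and named genes were chosen with earlier results of these data known. Genes named were the 3 markers, a set of GC genes, the 10 highest and 10 lowest median ratios over CB and 5 of each over transitioning cells and CC (same direction in 4 of 4 libraries, at least 100 CPM in 1 class), the 8 highest and 8 lowest ratios of CK over WT for which C and K lay on the side of CK (at least 100 CPM in 1 library and 50 UMIs over both), and extremes of the lists, without immunoglobulin variable segments and mitochondrial genes. Some of these genes are not reported here. Other genes were named for their role after their values were seen. The alternatives were other scalings, count minimums, thinning, doublet removal, added or fewer cells and leaving out each library.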

Additional observations from a re-analysis of the deposited data

Results flagged for a closer look

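Some cells outside the annotation lay nearest to early CB. Among barcodes at or above 2500 genes, which the annotation leaves out, the nearest annotated cells gave the early CB label to 111, 125, 114 and 102 cells of WT, C, K and CK. Their median UMI counts were 12603, 10300, 11233.5 and 9895.5, and doublets among them were not counted. Counted together with the annotated early CB, they were 74.5% of early CB in WT and 23.0% in CK. There are no control cells for this count, and the vote gave 56.0% of the annotated early CB their own label, while 75.3% of annotated cells that it called early CB had that label. The cells are not the same in every respect, since adding them took the MHC class II total of WT early CB from 37352 to 22476 CPM and the histone total from 1296 to 2942 CPM.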

How the results depend on the processing

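Many counts over classes and genotypes moved with depth and filters. Thinned to 2000 UMIs per cell, 84 genes were higher and 116 lower in early CB than in CB, 193 and 50 against transitioning cells, 319 and 119 against CC, and 8 and 51 against the CB of cluster 3, a comparison chosen after seeing the data. Lower genes numbered 64 in C and 238 in K, and 92.5% of K early CB were in S phase. With at least 100 UMIs these counts were 49 and 75, 127 and 37, 242 and 90, and 5 and 29, and over WT 7 higher and 4 lower in C, 36 and 63 in K, and 74 and 25 in CK. With at least 1 UMI, 313 genes were higher than in CB, 566 than in transitioning cells and 91 than in the CB of cluster 3, with 201 lower, and over WT 693 higher and 1214 lower in C, 469 and 2165 in K and 1821 lower in CK. These changes follow from fewer UMIs or other numbers of genes tested. Median-ratio scaling gave 51 lower than in transitioning cells.

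With cells above 2500 genes added, 893 genes were higher and 620 lower than in CC, 176 and 210 against the CB of cluster 3, and over WT 73 were higher in C, 81 in K and 116 in CK, with 132 lower in CK. Median UMIs became 10855 in WT, 7893 in C and 7651 in K. Shares of annotated cells were 7.01, 8.62 and 8.97% in WT, C and K, with differences from WT of 1.96 points in K and 2.53 in CK. Several ratios crossed 0, namely the light zone median over transitioning cells (-0.048), the light zone and MHC class II totals of K over WT (0.12 and 0.27), the G2M total of CK (-0.021), H2-Oa of K (0.42), Fbxo5 of K (-0.058), and Psmc1 of C (-0.12) and K (-0.023). Why they crossed was not tested. Under 2000 genes the shares were 1.09, 2.57, 3.51 and 5.43% of annotated cells in WT, C, K and CK, the K difference 2.42 points, and 10.1, 14.8, 15.3 and 21.1% of early CB and CB.

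Relative to the same ratio in CB, 199, 273 and 431 genes were lower for C, K and CK. The totals of S genes in CK (-0.72), G2M genes in C (-0.0024) and CK (-0.090), histone genes in C (-0.070) and CK (-0.50), and Top2a in C (-0.59) were then below 0, which follows from their higher ratios in CB. With at least 100 UMIs the medians of the dark zone list over transitioning cells (-0.0047) and of the list for the start of the cycle over CC (-0.072) crossed 0. Leaving out 1 library, which asks for the direction in 3 libraries only, gave 200 to 276 higher and 237 to 301 lower over CB, 157 to 175 lower over transitioning cells, 321 to 484 lower over CC, and 35 to 118 higher and 121 to 219 lower over the CB of cluster 3. Of the values for named genes, 326 of 356 between classes and 578 of 648 between genotypes stayed within their counting intervals. These totals include the settings with other count minimums, which cannot change the ratio of a gene. With the cells above 2500 genes added, 28 values between classes stayed and 27 moved. Between genotypes 52 then stayed, 31 moved and 4 crossed 0. No paired analysis was possible because each genotype had 1 library. The comparisons with WT rest on 38 cells and 235276 UMIs, which limits their precision.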
